A study of Mus musculus with 27 samples.

Results

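The genes described here are 8 mouse genes that control the sterol regulatory element-binding proteins (SREBPs) and lipoprotein receptor turnover: Srebf1, Srebf2, Scap, Insig1, Insig2, Mbtps1, Mylip and Rnf145. They were picked by symbol, with earlier results of these data known, from the 55487 genes of the deposited count and TPM tables. TPM is a transcript level corrected for gene length and library depth. All 8 were found, and all 8 passed the filter on low counts in every fit. Primary mouse cells of 3 kinds were kept for 24 h without serum and given either ethanol as the vehicle, or 24(S)-saringosterol, a phytosterol, at 10 µM, or at 1 µM a compound that the labels spell GW3596, GW3964 or GW3965, called GW here. GW3965 is a known agonist of the liver X receptors (LXRs). Microglia were shaken off mixed glial cultures, bone marrow-derived macrophages (BMDM) were grown with M-CSF, and the hepatocytes sat on collagen. Each of the 9 groups had 3 libraries. Microglia and BMDM received the compounds in DMEM/F12 with albumin, M-CSF and an insulin, transferrin and selenite supplement, and hepatocytes in Williams' E medium, so that medium and cell type cannot be told apart between hepatocytes and the rest. Whether replicates are separate animals or cultures is not in the labels. P-values therefore rest on library-to-library spread alone, which may be technical. The compounds differ in dose, so values set beside each other are those of the groups as treated.

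SREBPs are transcription factors made as membrane proteins of the endoplasmic reticulum. Srebf1 encodes SREBP-1, which mainly drives fatty acid synthesis genes, and Srebf2 encodes SREBP-2, which mainly drives cholesterol synthesis and the uptake of low-density lipoprotein (LDL). SCAP escorts the precursors to the Golgi, where the protease encoded by Mbtps1 makes the first cut that releases the active factor, and the INSIG proteins hold SCAP back when sterols are plentiful. Insig1 is itself a target of the SREBPs. LXRs sense oxidised sterols and switch on Srebf1, chiefly the SREBP-1c form, as well as Mylip, whose product IDOL is a ubiquitin ligase that marks the LDL receptor for destruction. Rnf145 encodes another membrane ubiquitin ligase that responds to LXR and acts on SCAP. Counts per gene do not separate the SREBP-1a and SREBP-1c transcripts of Srebf1.

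RefSeq promoter windows on GRCm38.p6, each from 250 bases before to 50 bases after a transcript start, were at hand for all 8 genes, 15 windows in all. The 4 windows below are shown because their genes changed with a compound and because they hold the letters of a sterol response element core (TCACCC) or of an LXR element repeat (GGTTACT). The boxes CACGTG and CCAAT were searched as well, and every motif on both strands. Of Rnf145 only the window with the LXR repeat is shown, and its start 1 window holds the core at -184. Capitals mark matches of the first pair of motifs, and a match on the other strand appears as GGGTGA or AGTAACC. The motifs were chosen with the sequences in view.
Srebf1, start 3, chr11:60210422-60210721, minus strand: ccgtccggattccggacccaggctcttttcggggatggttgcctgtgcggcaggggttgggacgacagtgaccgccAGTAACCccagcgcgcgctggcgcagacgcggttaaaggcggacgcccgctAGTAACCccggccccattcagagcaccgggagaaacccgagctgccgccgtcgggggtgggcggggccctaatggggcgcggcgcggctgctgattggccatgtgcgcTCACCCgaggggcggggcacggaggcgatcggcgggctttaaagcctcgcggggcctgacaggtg
Srebf2, chr15:82147019-82147318, plus strand: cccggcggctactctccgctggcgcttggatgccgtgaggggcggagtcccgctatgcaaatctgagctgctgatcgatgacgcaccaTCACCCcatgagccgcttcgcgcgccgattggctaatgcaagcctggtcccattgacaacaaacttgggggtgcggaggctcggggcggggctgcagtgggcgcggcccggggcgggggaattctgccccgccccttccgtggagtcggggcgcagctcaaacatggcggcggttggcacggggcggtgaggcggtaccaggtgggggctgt
Insig1, chr5:28071162-28071461, plus strand: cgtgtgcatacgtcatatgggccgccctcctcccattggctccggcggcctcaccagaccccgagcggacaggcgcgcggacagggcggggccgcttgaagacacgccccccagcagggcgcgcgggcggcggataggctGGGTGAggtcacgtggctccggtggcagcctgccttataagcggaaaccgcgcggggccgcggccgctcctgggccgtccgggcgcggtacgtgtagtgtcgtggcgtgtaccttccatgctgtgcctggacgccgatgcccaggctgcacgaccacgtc
Rnf145, start 3, chr11:44520039-44520338, plus strand: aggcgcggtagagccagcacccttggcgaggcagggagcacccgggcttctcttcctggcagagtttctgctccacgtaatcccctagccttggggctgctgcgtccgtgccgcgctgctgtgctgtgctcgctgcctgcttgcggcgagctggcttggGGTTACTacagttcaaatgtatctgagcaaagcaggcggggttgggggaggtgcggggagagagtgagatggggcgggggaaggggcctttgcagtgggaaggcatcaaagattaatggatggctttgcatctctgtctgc
The Srebf1 window holds the LXR repeat letters on the other strand with their first base at -174 and at -123 from the start, and the sterol element core at -15. The Srebf2 window has the core at -162, and the Insig1 window has it on the other strand at -110, beside a CACGTG box at -101, a box that 7.15% of all windows hold. The Rnf145 window has the LXR repeat letters at -91. The core occurred in 6 of the 15 windows, against 16.22% of all 32817 windows of the table. Those windows belong to 5 of the 8 genes (Srebf1, Srebf2, Insig1, Insig2 and Rnf145). No share per gene was computed for that count, and some genes have more windows than others. The LXR repeat letters occurred in 2 of the 15 windows, against 2.25% of all windows. The single Mylip window held neither of them, which says only that these letters are not in those 300 bases.

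The libraries held 30295862 to 41040268 counts in genes. Macrophage markers (10 genes) summed to 36820 ± 1036 CPM (counts scaled to library size; SD, n = 3) in vehicle microglia, 29240 ± 862.8 in vehicle BMDM and 354.2 ± 15.61 in vehicle hepatocytes, and hepatocyte markers (9 genes) summed to 10490 ± 46.84 CPM in vehicle hepatocytes and to 1.52 CPM at most in any library of the other cells. Microglia markers (7 genes) summed to 840.2 CPM in vehicle microglia, 238 in BMDM and 105.9 in hepatocytes, with Siglech at 0 in all microglia libraries. With saringosterol the macrophage sum in BMDM was 22270 to 23710 CPM, below the vehicle range of 28410 to 30130, and with GW the microglia marker sum in microglia was 1010 to 1032 CPM, above the vehicle range of 826.4 to 856.2. The astrocyte list (7 genes) summed in microglia to 46.6 to 49.6 CPM over the vehicle libraries, 29.1 to 36.1 with saringosterol and 63.9 to 67.9 with GW, and in BMDM to means of 41.2, 17.8 and 48.7 CPM in the same order. The endothelial list (6 genes) summed in BMDM to 29.4 to 30.9 CPM in vehicle, 50.7 to 59.4 with saringosterol and 86.1 to 88.8 with GW. The part of these lists in the changes of the 8 genes was not tested. Group sums of the other lists ran from 5.547 to 80.64 CPM for oligodendrocyte-lineage genes, from 0.557 to 4.737 for neuronal genes, from 0.6919 to 3.337 for stellate and fibroblast genes and from 0.2908 to 75.87 for neutrophil genes. The cholangiocyte list, which holds Spp1, a gene that macrophages also express, ran from 519.5 CPM in GW hepatocytes to 11720 CPM in GW microglia. One library stood apart: the third BMDM library with saringosterol differed from the other 2 of its group with a chi-square per degree of freedom of 36.0 and 37.4 over genes, where the remaining replicate pairs of the series ranged from 3.77 to 12.6. Changes of Srebf1, Srebf2, Insig1, Mylip and Rnf145 with saringosterol in BMDM, against vehicle or GW, are given with and without it. The spread estimate of the BMDM fit rests on it too, and so do the SE and p of GW against vehicle there. Those are not given without that library alone. A fit of only the GW and vehicle libraries of BMDM called 2520 genes with GW, in place of 1606.

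Of the 8 genes, Srebf1, Srebf2, Insig1, Mylip and Rnf145 changed with at least 1 compound in at least 1 cell type, and Scap, Insig2 and Mbtps1 in none. A gene is called here at an adjusted p under 0.05 in edgeR's quasi-likelihood test, adjusted by Benjamini-Hochberg over all genes of the fit. In microglia, saringosterol raised 3 of the 8 genes (Srebf1, Mylip and Rnf145) and lowered 2 (Srebf2 and Insig1), where 4.19% of all 16065 tested genes rose and 6.66% fell. GW raised 5 (the same 5 genes) and lowered none in microglia, against 13.4% of genes higher and 15.2% lower. In BMDM, saringosterol raised the same 3 genes and lowered Srebf2, against 5.53% higher and 5.12% lower. GW raised Srebf1, Insig1, Mylip and Rnf145 in BMDM and lowered none, against 5.66% higher and 4.76% lower. In hepatocytes, saringosterol lowered Srebf2 and Insig1 and raised Rnf145, against 0.888% of genes higher and 1.02% lower. GW raised Srebf1, Insig1 and Rnf145 in hepatocytes and lowered none, against 0.721% higher and 0.385% lower. Same-numbered libraries of these 2 hepatocyte groups deviated together, and with the replicate block 3 of the 8 were called again, while the count over all genes went from 178 to 286. The median absolute log2 change of the 8 genes lay between 0.27 (GW in hepatocytes) and 0.69 (saringosterol in BMDM) over these 6 comparisons, where that of all tested genes lay between 0.09 and 0.20. Both compounds were set against the same vehicle libraries within a cell type.

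**Figure D1:**
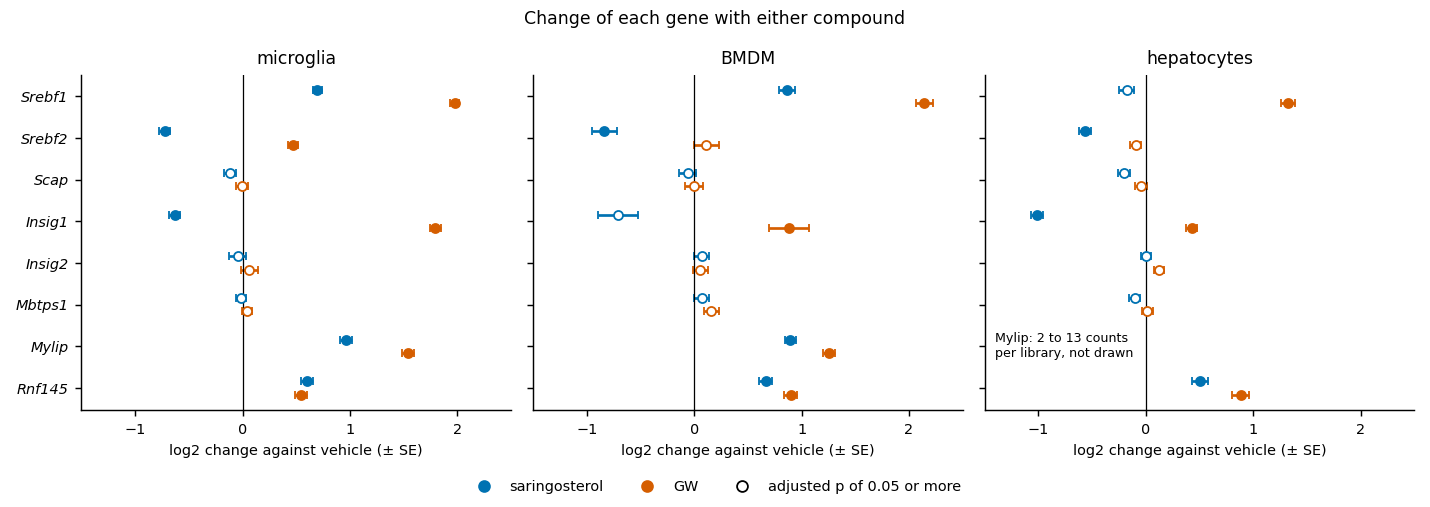
The log2 change against vehicle (points, with the SE as bars) of each gene in microglia, BMDM and hepatocytes, with saringosterol in blue and GW in orange, and open points for an adjusted p of 0.05 or more. Srebf2 and Insig1 lie left of 0 with saringosterol in all 3 cell types, while Scap, Insig2 and Mbtps1 stay within 0.20 of 0. Mylip in hepatocytes, at 2 to 13 counts per library, is not drawn.

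Srebf1, the gene of SREBP-1, rose with GW in all 3 cell types and with saringosterol in microglia and BMDM. In vehicle microglia the 3 libraries stood at 47.3, 47.5 and 47.0 TPM, with saringosterol at 80.8, 78.7 and 72.1 TPM and with GW at 175.1, 180.1 and 177.0 TPM, so that the 3 groups did not overlap. The log2 change in microglia was 0.70 ± 0.04 (SE) with saringosterol (edgeR adjusted p = 3.3e-13) and 1.97 ± 0.04 with GW (adjusted p = 4.2e-25). BMDM showed the same order, with vehicle libraries at 45.8, 44.5 and 48.9 TPM, saringosterol libraries at 78.9, 86.0 and 102.3 TPM and GW libraries at 204.8, 204.9 and 215.0 TPM. The third saringosterol library was the highest of its group, and the log2 change of 0.86 ± 0.07 in BMDM (adjusted p = 9.5e-07) was 0.76 without it. With GW the change in BMDM was 2.14 ± 0.08 (adjusted p = 5.5e-12). Hepatocytes differed in the saringosterol arm. Their vehicle libraries stood at 61.3, 53.4 and 58.6 TPM and their saringosterol libraries at 45.7, 50.4 and 57.4 TPM, which overlap, while the GW libraries stood at 145.5, 132.6 and 153.9 TPM, above all others. The log2 change of Srebf1 in hepatocytes was -0.18 with saringosterol (95% interval -0.32 to -0.03, adjusted p = 0.20) and 1.32 ± 0.07 with GW (adjusted p = 3.6e-11). Without vehicle replicate 2 the former was -0.23 and called (adjusted p = 0.047). Ordered by mean level, Srebf1 ran from BMDM vehicle (46.4 ± 2.23 TPM; SD, n = 3) and microglia vehicle (47.3 ± 0.25), which did not differ beyond their spread, through hepatocytes with saringosterol (51.1 ± 5.91) and vehicle (57.8 ± 3.99), also overlapping, to microglia (77.2 ± 4.53) and BMDM (89.1 ± 12.01) with saringosterol, which overlap, and the GW groups of hepatocytes (144.0 ± 10.8), microglia (177.4 ± 2.51) and BMDM (208.2 ± 5.86).

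Srebf2, the gene of SREBP-2, fell with saringosterol in all 3 cell types and rose with GW in microglia. Microglia libraries stood at 50.40, 50.001 and 50.90 TPM in vehicle, at 33.1, 31.2 and 27.9 TPM with saringosterol and at 66.6, 66.9 and 66.6 TPM with GW, again without overlap. On the log2 scale Srebf2 in microglia fell by 0.73 ± 0.05 with saringosterol (edgeR adjusted p = 3.3e-12) and rose by 0.47 ± 0.05 with GW (adjusted p = 2.9e-09). In BMDM the vehicle libraries stood at 52.5, 54.1 and 57.0 TPM and the saringosterol libraries at 28.4, 28.2 and 40.1 TPM, the third being the one that stands apart. The log2 change of -0.84 ± 0.12 in BMDM (adjusted p = 0.0024) was -1.02 without that library (adjusted p = 4.6e-12). GW libraries of BMDM lay at 58.9, 60.1 and 60.7 TPM, all above vehicle in TPM, but the log2 change of 0.11 was not called (95% interval -0.15 to 0.38, adjusted p = 0.62). Hepatocyte libraries stood at 43.5, 42.5 and 42.5 TPM in vehicle, at 27.3, 28.2 and 31.7 TPM with saringosterol and at 40.97, 37.34 and 41.40 TPM with GW. Srebf2 in hepatocytes fell by 0.56 ± 0.06 with saringosterol (adjusted p = 1.1e-07), and its change of -0.10 with GW was not called (95% interval -0.21 to 0.02). The 3 saringosterol groups had the lowest mean levels (29.1 to 32.2 TPM) and did not differ from each other beyond their spread. Above them came GW and vehicle hepatocytes (39.9 and 42.8 TPM), vehicle microglia and BMDM (50.4 and 54.6), and GW-treated BMDM and microglia (59.9 and 66.7).

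The balance of the SREBP genes moved in both arms. The ratio of Srebf1 to Srebf2 TPM within a library was 0.94 ± 0.01 in vehicle microglia, 0.85 ± 0.03 in vehicle BMDM and 1.35 ± 0.08 in vehicle hepatocytes (SD, n = 3). With saringosterol it stood at 2.51 ± 0.07, 2.80 ± 0.25 and 1.76 ± 0.07, and with GW at 2.66 ± 0.03, 3.48 ± 0.06 and 3.61 ± 0.10. Without the third BMDM saringosterol library the BMDM value was 2.92 (n = 2). In each cell type the treated libraries lay above all vehicle libraries. In microglia the lowest GW library (2.63) lay just above the highest saringosterol library (2.58), so that the ratios lay close together there while both genes stood lower with saringosterol, Srebf1 at 0.41 and Srebf2 at 0.44 of their GW level.

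**Figure D2:**
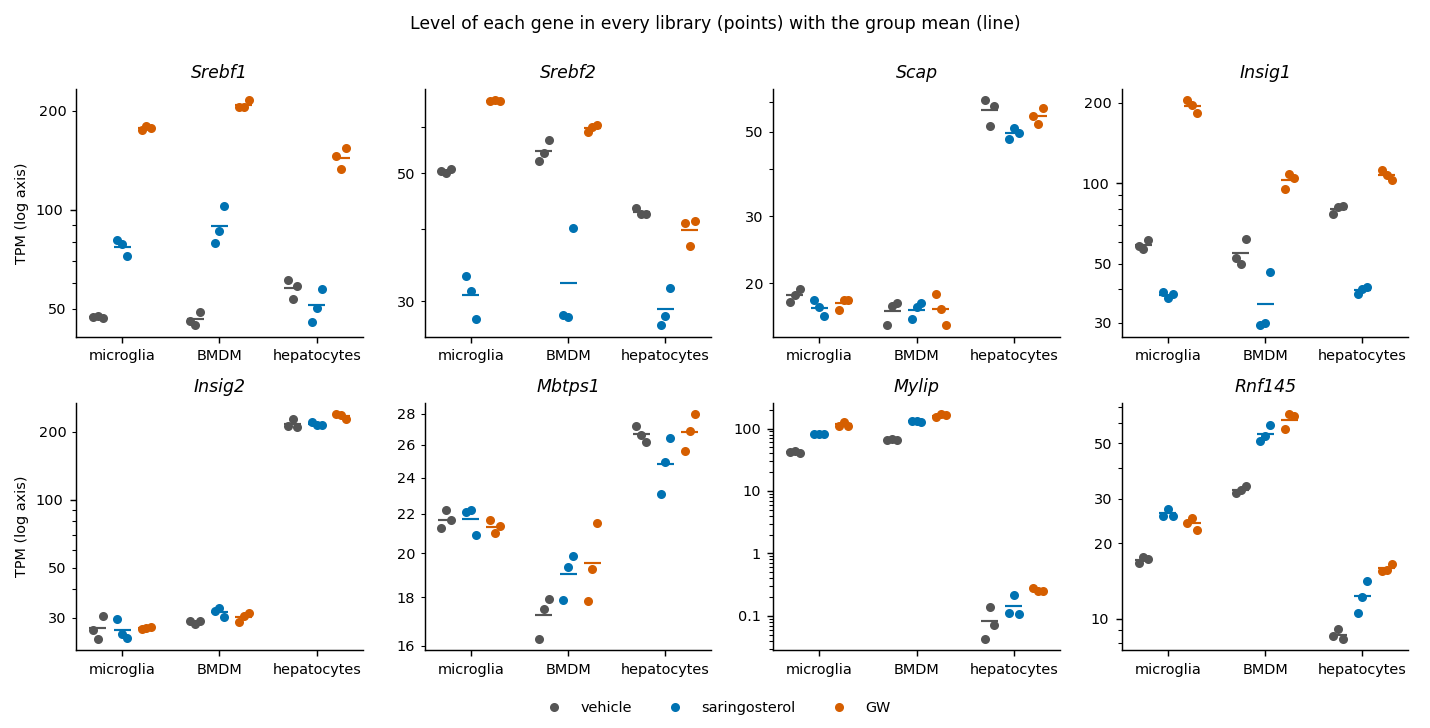
TPM on a log axis of each of the 8 genes in every library (points) with the group mean (line), by cell type, with vehicle in grey, saringosterol in blue and GW in orange. Srebf1 reaches 204.8 to 215.0 TPM in GW-treated BMDM, Insig2 lies near 220 TPM only in hepatocytes, and Mylip stays under 0.3 TPM there.

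Insig1, which retains SCAP in the endoplasmic reticulum, went opposite ways with the 2 compounds. In microglia the vehicle libraries stood at 58.2, 56.7 and 61.1 TPM, the saringosterol libraries at 39.2, 37.2 and 38.4 TPM and the GW libraries at 204.2, 195.5 and 183.1 TPM. Its log2 change in microglia was -0.63 ± 0.05 with saringosterol (edgeR adjusted p = 2.9e-10) and 1.79 ± 0.05 with GW (adjusted p = 1.9e-22). In BMDM the vehicle libraries stood at 52.7, 49.6 and 61.9 TPM, the saringosterol libraries at 29.4, 29.9 and 46.7 TPM and the GW libraries at 95.3, 108.4 and 104.2 TPM, with no overlap. The change of -0.71 with saringosterol in BMDM missed the threshold (adjusted p = 0.06), and without the third saringosterol library it was -0.96 (adjusted p = 4.4e-09). With GW the rise of 0.88 ± 0.18 in BMDM was called (adjusted p = 0.027), but not when any 1 of 5 libraries was left out: GW replicate 1, 2 or 3, or vehicle replicate 1 or 2 (log2 changes from 0.81 to 0.91, adjusted p from 0.064 to 0.11). Those fits all keep the third saringosterol library, on which their SE rests too. A fit of only the GW and vehicle libraries of BMDM kept the call. Hepatocyte libraries stood at 76.8, 81.6 and 82.3 TPM in vehicle, at 38.5, 40.2 and 40.7 TPM with saringosterol and at 111.7, 107.2 and 103.1 TPM with GW. The log2 change of Insig1 in hepatocytes was -1.01 ± 0.05 with saringosterol (adjusted p = 2.2e-13), the lowest adjusted p of the 8 genes in that comparison, and 0.43 ± 0.05 with GW (adjusted p = 2.6e-06). By mean level the 3 saringosterol groups (35.3 ± 9.84 TPM in BMDM, 38.2 ± 1.01 in microglia and 39.8 ± 1.18 in hepatocytes) overlapped at the bottom, and GW-treated microglia (194.2 ± 10.6) stood alone at the top.

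Insig2, Scap and Mbtps1 changed with neither compound in any cell type by the test. Insig2, the second retention gene, set the cell types apart: its libraries lay between 24.1 and 33.1 TPM in all groups of microglia and BMDM and between 209.3 and 238.8 TPM in hepatocytes. Its log2 changes against vehicle ran from -0.05 to 0.12, with the lowest bound of any 95% interval at -0.21 (saringosterol in microglia) and the highest at 0.23 (GW in microglia). The ratio of Insig1 to Insig2 TPM was 2.18 ± 0.17 in vehicle microglia, 1.91 ± 0.20 in vehicle BMDM and 0.37 ± 0.02 in vehicle hepatocytes. GW took it to 7.20 ± 0.44, 3.39 ± 0.14 and 0.46 ± 0.01 in turn, and saringosterol to 1.46 ± 0.12, 1.12 ± 0.37 and 0.18 ± 0.01, with 0.91 in BMDM without the third library (n = 2). In all 9 hepatocyte libraries the Insig2 level per length was above that of Insig1. Scap, the escort, also stood higher in hepatocytes, at 48.0 to 60.5 TPM over their 9 libraries against 15.5 to 19.3 TPM over the 18 other libraries. The largest Scap change was with saringosterol in hepatocytes, where the vehicle libraries stood at 60.5, 51.6 and 58.6 TPM and the saringosterol libraries at 48.0, 51.3 and 49.6 TPM, a log2 change of -0.20 with an adjusted p of 0.063 (95% interval -0.32 to -0.08). This change of Scap was called by DESeq2 (log2 -0.20, adjusted p = 0.039), without a filter on low counts (adjusted p = 0.020) and without vehicle replicate 2 (-0.27, adjusted p = 0.0021). Mbtps1, the gene of the site-1 protease, had libraries from 16.3 to 28.0 TPM over the whole series, with log2 changes from -0.10 to 0.16, the highest with GW in BMDM (95% interval 0.01 to 0.30, adjusted p = 0.16).

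Mylip, the gene of the LDL receptor ligase IDOL, rose with both compounds in microglia and BMDM. In microglia its libraries stood at 41.7, 43.5 and 40.6 TPM in vehicle, at 82.1, 82.4 and 82.7 TPM with saringosterol and at 110.0, 128.1 and 111.5 TPM with GW. The log2 change was 0.96 ± 0.05 with saringosterol (edgeR adjusted p = 2.7e-14) and 1.54 ± 0.05 with GW (adjusted p = 3.5e-20). BMDM started from a higher level, 66.2, 66.8 and 66.6 TPM in vehicle, and reached 131.2, 132.8 and 127.4 TPM with saringosterol and 150.6, 170.0 and 164.2 TPM with GW. There Mylip rose by 0.90 ± 0.05 (adjusted p = 1.6e-09) and 1.26 ± 0.05 (adjusted p = 5.9e-12), and without the third saringosterol library the first of these was 0.92. Hepatocytes held almost no Mylip message. Their counts per library were 2, 6 and 3 in vehicle, 4, 9 and 5 with saringosterol and 13, 9 and 11 with GW, at most 0.28 TPM, where a count of 0 would still allow 3 counts. All 3 GW counts of Mylip were above all 3 vehicle counts, with an unadjusted edgeR p of 0.021, but neither compound passed the test after adjustment (adjusted p = 0.64 with saringosterol and 0.45 with GW), at counts this close to the floor. For such counts no fold against the other cells is given. In these bulk samples, fewer cells of a type and less RNA per cell cannot be told apart.

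Rnf145 rose with both compounds in all 3 cell types, the one gene of the 8 to do so. Microglia libraries stood at 16.7, 17.6 and 17.4 TPM in vehicle, at 25.7, 27.5 and 25.7 TPM with saringosterol and at 24.0, 25.3 and 22.6 TPM with GW. Rnf145 in microglia rose by 0.60 ± 0.05 on the log2 scale with saringosterol (edgeR adjusted p = 1.4e-09) and by 0.54 ± 0.05 with GW (adjusted p = 1.8e-09). BMDM libraries stood at 31.7, 32.7 and 33.7 TPM, 51.3, 53.6 and 59.0 TPM, and 56.8, 65.3 and 64.1 TPM in the same order, rises of 0.67 ± 0.06 (0.61 without the third saringosterol library) and 0.90 ± 0.06. Hepatocyte libraries stood at 8.5, 9.1 and 8.3 TPM in vehicle, at 10.5, 12.2 and 14.1 TPM with saringosterol and at 15.4, 15.7 and 16.5 TPM with GW, rises of 0.50 ± 0.08 (adjusted p = 3.2e-04) and 0.88 ± 0.08 (adjusted p = 5.5e-09). By mean level the cell types kept their order under each treatment, hepatocytes (8.65, 12.3 and 15.9 TPM) below microglia (17.2, 26.3 and 24.0) below BMDM (32.7, 54.6 and 62.1).

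Set against each other, 10 µM saringosterol gave lower values than 1 µM GW wherever a gene of the 8 was called. In microglia 4 of the 8 were called, all lower with saringosterol, where 25.5% of all tested genes were called in either direction. The log2 differences of saringosterol from GW in microglia were -2.42 for Insig1, -1.28 for Srebf1, -1.19 for Srebf2 and -0.58 for Mylip. Rnf145 was not among them, with a difference of 0.06 and a 95% interval from -0.05 to 0.16. In BMDM 5 of the 8 were called, against 9.33% of genes: Insig1 at -1.59, Srebf1 at -1.28, Srebf2 at -0.95, Mylip at -0.36 and Rnf145 at -0.24 (edgeR adjusted p = 0.015). Without the third saringosterol library Insig1 stood at -1.84, Srebf1 at -1.39, Srebf2 at -1.14, Mylip at -0.34 and Rnf145 at -0.295 in BMDM, all called. The call of Rnf145 was lost without any 1 of 4 BMDM libraries, saringosterol replicate 1 or 2 or GW replicate 2 or 3 (differences from -0.22 to -0.20, adjusted p from 0.066 to 0.081). In hepatocytes 4 were called, against 1.96% of genes: Srebf1 at -1.501, Insig1 at -1.44, Srebf2 at -0.47 and Rnf145 at -0.38. Insig2, Scap and Mbtps1 were called in none of the 3.

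The responses of the cell types were compared as differences of log2 changes in 1 fit of all 27 libraries. For saringosterol in microglia against BMDM, none of the 8 genes was called by edgeR, none had an unadjusted p under 0.05, and DESeq2 called 0 as well, where 2.01% of all 18979 tested genes were called. The 95% interval of the difference ran from -0.41 to 0.06 for Srebf1 and from -0.27 to 0.41 for Insig1. For Srebf2 and Insig1 the difference is not given without the third BMDM saringosterol library. Without that library both genes fell further in BMDM, as given above, which took them further from their microglia values. Against hepatocytes the difference of Insig1 was not called (0.42 ± 0.16 for microglia, edgeR adjusted p = 0.26). The fits of single cell types gave it changes of -0.63 ± 0.05 in microglia and -1.01 ± 0.05 in hepatocytes. These SE lie well under the 0.16 of the shared fit, which takes in the spread of BMDM too, so its p may be too high. In each comparison with hepatocytes 1 gene was called, Srebf1. Its saringosterol response was 0.91 ± 0.12 higher in microglia (edgeR adjusted p = 2.8e-05, with 1.18% of genes called) and 1.09 ± 0.12 higher in BMDM (adjusted p = 6.7e-07, with 10.1% called), and the latter was 0.98 without the third BMDM saringosterol library. For GW in microglia against BMDM 3 genes were called, against 9.71% of genes: the response of Insig1 was 0.91 ± 0.16 higher and that of Mylip 0.28 ± 0.08 higher in microglia, and that of Rnf145 lower (-0.36 ± 0.10). The SE of this Insig1 difference lies under the SE of 0.18 that Insig1 with GW had in the fit of BMDM alone, so its p may be too low. The Mylip call was lost without BMDM GW replicate 1, microglia GW replicate 2 or microglia vehicle replicate 1 or 3 (0.21 to 0.27, adjusted p from 0.055 to 0.12). For GW in microglia against hepatocytes 4 were called, against 8.69%: Insig1 (1.39 ± 0.16), Srebf1 (0.67 ± 0.11), Srebf2 (0.59 ± 0.13) and Rnf145 (-0.32 ± 0.10). The last of these was lost without any 1 of 9 libraries: each hepatocyte GW replicate, microglia GW replicate 1 or 3, hepatocyte vehicle replicate 1 or 3, or microglia vehicle replicate 2 or 3 (-0.34 to -0.27, adjusted p from 0.051 to 0.13). For GW in BMDM against hepatocytes 1 was called, Srebf1 (0.85 ± 0.11, adjusted p = 1.5e-05), against 4.74%. The fall of Srebf2 with saringosterol was not shown to differ between any 2 cell types, with 95% intervals of the difference from -0.16 to 0.36 for microglia against BMDM, -0.39 to 0.13 for microglia against hepatocytes and -0.49 to 0.03 for BMDM against hepatocytes. For microglia against hepatocytes the SE was 0.13, where Srebf2 had 0.05 and 0.06 in the fits of those cell types alone. That interval may therefore be too wide. The intervals with BMDM include the third saringosterol library, without which Srebf2 fell further there, and are not given without it.

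Without compound the cell types already differed. Between vehicle microglia and vehicle BMDM 5 of the 8 genes were called, against 46.5% of all genes, with Rnf145 lower in microglia (log2 difference -1.03 ± 0.07, edgeR adjusted p = 2.3e-14), Mylip lower (-0.77 ± 0.06, adjusted p = 5.1e-13) and Mbtps1 higher (0.23 ± 0.06, adjusted p = 0.0021). Srebf2 (-0.22, adjusted p = 0.047) and Insig2 (-0.19, adjusted p = 0.023) were close to the threshold and lost their call with RLE scaling and with DESeq2. Srebf2 also lost it without scaling factors (-0.19, adjusted p = 0.054) and without any 1 of the 3 vehicle microglia libraries or BMDM vehicle replicate 2 or 3 (-0.23 to -0.17, adjusted p from 0.077 to 0.18), and Insig2 without microglia vehicle replicate 1 or 2 or BMDM vehicle replicate 1 or 3 (-0.18 to -0.11, adjusted p from 0.052 to 0.24). Between vehicle microglia and vehicle hepatocytes 5 were called, against 73.5% of genes: Insig2 (-2.69 ± 0.07) and Scap (-1.30 ± 0.07) were lower in microglia, and Srebf2 (0.55 ± 0.09), Rnf145 (1.31 ± 0.07) and Mylip were higher. Between vehicle BMDM and vehicle hepatocytes 6 were called, against 75.2%: Insig2 (-2.50 ± 0.07), Scap (-1.34 ± 0.07) and Mbtps1 (-0.21 ± 0.06) were lower in BMDM, and Srebf2 (0.77 ± 0.09), Rnf145 (2.34 ± 0.07) and Mylip were higher. These shares are so large that a count of 5 or 6 genes does not set the 8 apart. Without scaling factors the median log2 difference of all genes against hepatocytes was -0.33 in microglia and -0.37 in BMDM, in place of 0.04 and 0.02, and Srebf2 in microglia against hepatocytes then stood at 0.17 (adjusted p = 0.06).

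The known targets of the 2 factors were followed in lists, whose counts stand against 0.385% to 15.2% of all genes called in 1 direction in these comparisons. Of 20 sterol synthesis genes, targets mainly of SREBP-2, 19 fell and none rose with saringosterol in microglia (median log2 change -0.89, where the median of all genes lay between -0.0083 and 0.0004 over the 6 comparisons), among them Fdft1, squalene synthase (-1.49), and Idi1, an isomerase of the isoprenoid units (-1.43). In BMDM 19 fell with saringosterol (median -1.16), among them Sqle, squalene epoxidase (-1.80), and Fdft1 (-1.72), and 20 fell without the third saringosterol library (median -1.39). In hepatocytes 14 fell (median -0.44), led by Idi1 (-1.39), Fdps, farnesyl diphosphate synthase (-1.06), and Cyp51, lanosterol demethylase (-0.91). With GW all 20 rose in microglia (median 0.99), led by Fdps (1.59), Sc5d (1.58) and Acat2 (1.55). In BMDM 4 rose with GW, Lss (0.79), Mvd (0.66), Tm7sf2 (0.50) and, outside the naming rule and picked after its value was seen, Dhcr7 (0.32). The list median there was 0.26, and 8 of the 20 had an unadjusted edgeR p under 0.05. In hepatocytes edgeR and DESeq2 called none of the 20 with GW (3 at an unadjusted p under 0.05). Srebf2 itself fell with saringosterol in all 3 cell types and rose with GW in microglia, but its change with GW was not called in BMDM or hepatocytes.

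Fatty acid genes, targets mainly of SREBP-1, split with saringosterol and rose with GW. Of 13 tested in microglia 7 rose and 4 fell with saringosterol (median 0.24), with the desaturases Scd1 (1.41) and Scd2 (1.22) highest and the desaturase Fads2 (-0.92) lowest. In BMDM 5 rose and 3 fell (median 0.15), with Scd1 (1.58), Scd2 (1.13) and Fads2 (-1.05) again farthest, and 6 rose and 4 fell without the third saringosterol library. In hepatocytes 5 fell and none rose (median -0.15), led by Fasn, fatty acid synthase (-0.54), Fads1 (-0.53) and Elovl6 (-0.52). GW raised all 13 in microglia (median 1.00), with Scd1 (4.30), Fads2 (3.11) and Scd2 (2.68) farthest. It raised 10 of 13 in BMDM (median 0.78), with Scd1 (4.32), Scd2 (2.31) and Fasn (2.18) farthest, and 8 of 13 in hepatocytes (median 0.33), with Scd2 (2.23), Scd1 (1.93) and Fasn (1.198) farthest. The Scd genes have close copies, and how the authors' counting treated reads shared between them is not given in the sources used here.

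**Figure D3:**
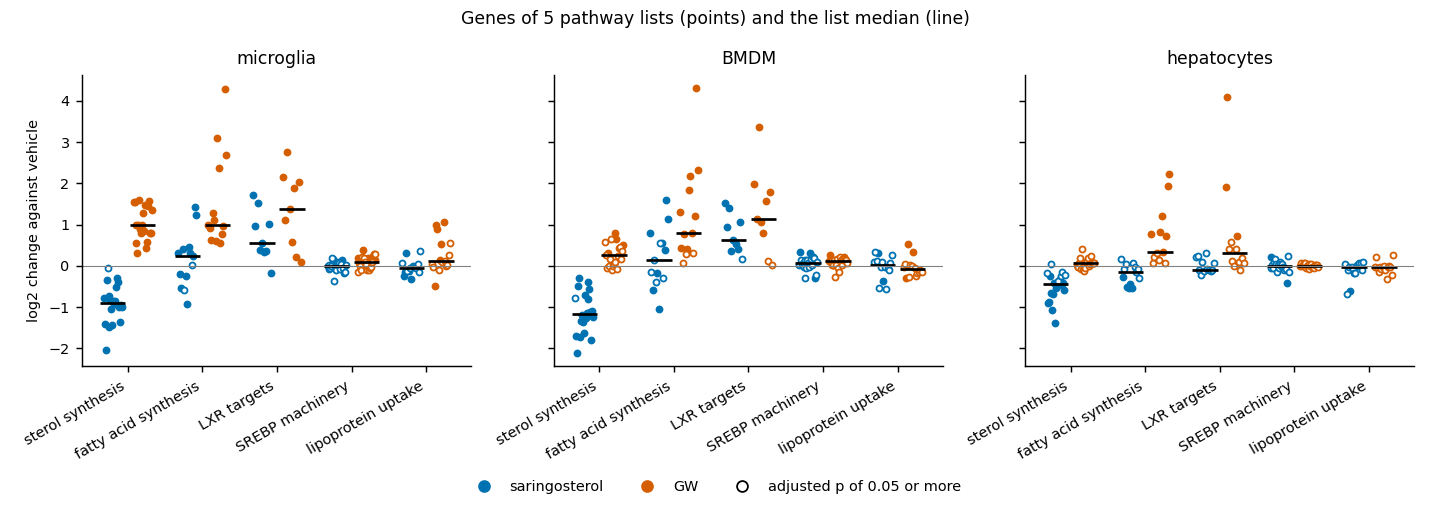
The log2 change against vehicle of every tested gene of 5 pathway lists (points, open where the adjusted p is 0.05 or more) with the list median (line), in microglia, BMDM and hepatocytes, saringosterol in blue and GW in orange. Sterol synthesis genes lie below 0 with saringosterol and above 0 with GW in microglia, while the medians of the SREBP machinery lie between -0.01 and 0.13.

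LXR targets without the 8 genes rose with both compounds in the macrophage-like cells. Of 9 tested in microglia 8 rose and 1 fell with saringosterol (median 0.54), led by the cholesterol exporter Abca1 (1.71), the apolipoprotein gene Apoc1 (1.53) and the phospholipid transfer protein gene Pltp (1.02). The one that fell, outside the naming rule and picked after its value was seen, was Smpdl3a (-0.18). With GW all 9 rose (median 1.37), led by Apoc1 (2.76), Abca1 (2.16) and Pltp (2.03). In BMDM 8 of 9 rose with saringosterol (median 0.62), with Abca1 at 1.52, Apoc1 at 1.39 and Pltp at 1.06, and 7 with GW (median 1.14), with Apoc1 at 3.37, Abca1 at 1.98 and Pltp at 1.80. In hepatocytes edgeR and DESeq2 called none of 12 with saringosterol (4 at an unadjusted p under 0.05, median -0.09), and 3 rose with GW: the exporter Abcg1 (4.10), Abca1 (1.92) and Lpcat3, a phospholipid acyltransferase gene (0.73).

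A further list held other proteins that move, cut or degrade SREBPs and the INSIG proteins, with list medians from -0.01 to 0.13 over the 6 comparisons. It also held Npc1 and Tmem97, described below, which do none of these. Over all genes, 4.19% rose and 6.66% fell with saringosterol in microglia, 5.53% and 5.12% in BMDM, and 0.888% and 1.02% in hepatocytes. With GW the shares were 13.4% and 15.2%, 5.66% and 4.76%, and 0.721% and 0.385% in the same order. Counts of 1 or 2 genes in BMDM do not set this list or the lipoprotein uptake list apart from these shares. Of 21 tested machinery genes 2 rose with saringosterol in microglia, Npc1 (0.17) and Sec24d (0.15). With GW 6 of the 21 rose there, where 13.4% of all genes rose, led by Npc1 (0.39), which exports cholesterol from lysosomes, its binding partner Tmem97 (0.30) and Syvn1, a ubiquitin ligase gene (0.24). In BMDM 2 rose and 1 fell with saringosterol, Erlin1 (0.35), Sec23a (0.32) and Tmem97 (-0.30), and 2 rose with GW, Erlin1 (0.26) and Syvn1 (0.22). Without the third saringosterol library 3 rose and 1 fell with saringosterol in BMDM. In hepatocytes saringosterol raised Erlin1 (0.21) and lowered Tmem97 (-0.42), and edgeR and DESeq2 called 0 of 21 with GW (0 at an unadjusted p under 0.05). Of the lipoprotein uptake genes, 1 rose and 4 fell of 15 with saringosterol in microglia, among them the receptor gene Lrp1 (0.32), the scavenger receptor gene Scarb1 (-0.31) and the adaptor Dab2 (-0.25), and 5 rose and 1 fell with GW, led by Sort1 (1.06), Lrp1 (1.00) and Lrp8 (0.89). In BMDM 1 of 14 rose and 1 fell with saringosterol, Lrp1 (0.31) and Scarb1 (-0.38), and 2 rose and 1 fell with GW, with Lrp1 (0.53) and Scarb1 (0.34) the ones that rose. Without the third BMDM saringosterol library 1 rose and 3 fell with saringosterol. In hepatocytes 1 of 15 fell with saringosterol, Lrp8 (-0.60), and edgeR and DESeq2 called 0 with GW (2 at an unadjusted p under 0.05).

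The 8 genes fell into a few patterns over the 27 libraries. After each cell type was centred on its own mean of log2 CPM, Pearson's r was 0.89 between Srebf2 and Insig1, 0.88 between Mylip and Rnf145, 0.85 between Srebf1 and Mylip, 0.80 between Srebf1 and Rnf145, and 0.74 between Srebf1 and Insig1. Srebf2 had an r of 0.04 with Mylip and -0.13 with Rnf145. These are descriptions, since the libraries share treatments and depth. The r values of Mylip include hepatocyte libraries with 2 to 13 counts of it, under the floor of 1 log2 CPM set for the genes compared. Among the 9705 genes compared (9706 for Mylip), with a mean of at least 1 log2 CPM in each cell type, those most like Srebf1 were Mid1ip1 (r = 0.99) and Scd1 (0.98), and those most like Srebf2 were Fdft1 and Idi1 (0.97 each). Insig1 was most like Fads1 and Slc25a1 (0.97 each), Mylip most like Abca1 (0.93) and Scd2 (0.88), and Rnf145 most like Abca1 and Gramd1b (0.92 each). The likeness was lower for the genes that were not called: Scap with Grina (0.86) and Dpp3 (0.83), Mbtps1 with Slc38a10 (0.86) and Dnajc16 (0.85), and Insig2 with Zdhhc6 (0.74) and Cdk5rap1 (0.67).

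**Figure D4:**
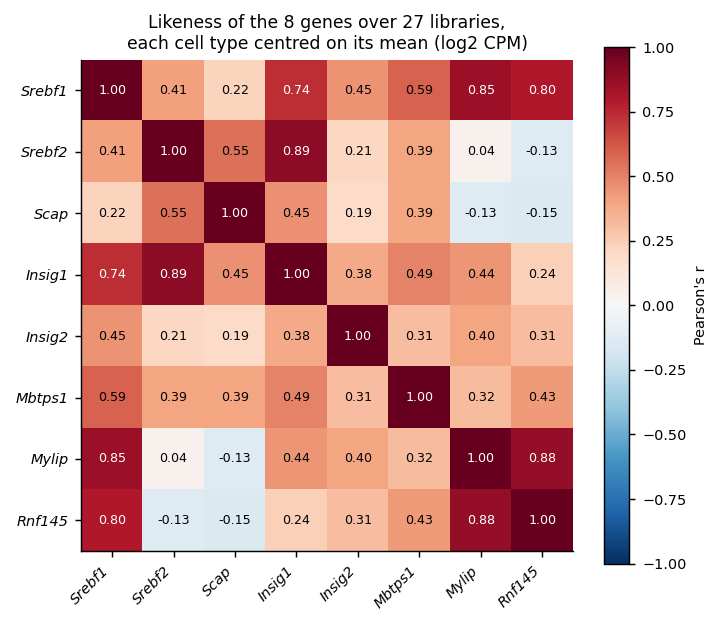
Pearson's r of log2 CPM between each pair of the 8 genes over 27 libraries, each cell type centred on its mean, with red for positive and blue for negative values. Srebf2 and Insig1 (0.89) form one pair and Mylip and Rnf145 (0.88) another, with Srebf1 at 0.80 or more with both genes of the latter. Mylip has only 2 to 13 counts in each hepatocyte library.

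On GRCm38 the deposited gene spans, with the same spans in GENCODE M21, are chr11:60199089-60222581 (minus strand) for Srebf1, chr15:82147181-82205379 (plus) for Srebf2, chr9:110333288-110384950 (plus) for Scap, chr5:28071363-28078662 (plus) for Insig1, chr1:121304353-121332589 (minus) for Insig2, chr8:119508156-119558735 (minus) for Mbtps1, chr13:45389742-45412022 (plus) for Mylip and chr11:44518964-44565520 (plus) for Rnf145.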

How the data were processed

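RNA of 27 libraries was sequenced from oligo-dT primed cDNA, per the labels' protocols. The submitters' processing notes name bcl2fastq, STAR 2.5.1a, featureCounts 1.4.6-p5 (Subread) and GRCm38. Which annotation release and strand setting were used, and how multi-gene reads were counted, is not given in these sources. The authors deposited raw counts per gene and TPM (length- and depth-corrected levels), per the file headers. Both were read for 55487 gene identifiers, and 168 identifiers that stand on several identical lines were used once. The series tables and the single-library files held the same values.

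Counts were tested with edgeR 4.0.16 in R 4.3.3 (TMM scaling, filterByExpr, robust quasi-likelihood F test), in 1 fit of 9 libraries per cell type and in 1 fit of all 27 libraries, with a common dispersion trend for the cell types, for responses compared between cell types and for vehicle levels. P-values were adjusted by Benjamini-Hochberg over all genes of a fit, with a threshold of 0.05. The edgeR tests were run on simulated counts with the same dispersion for all genes and cell types and no library standing apart. That check does not cover the differing spread of the cell types or the BMDM library that stood apart. Same-numbered libraries deviated together, with every r over 0.1, in 1 of the 9 pairs of groups within a cell type, GW against vehicle in hepatocytes (r of 0.17, 0.35 and 0.11), which the data and not the labels show. The highest r between libraries of unlike number was 0.12 there. Same-numbered r were small but above all others for GW against saringosterol in hepatocytes (0.08, 0.08 and 0.11). The same held for GW against vehicle in BMDM (0.10, 0.06 and 0.06) and in microglia (0.18, 0.05 and 0.17). TPM levels are descriptions. Fold changes are log2 values of the fits, and a prior count of 2 was used only for the log2 CPM behind Pearson's r. A count of 0 allows up to 3 counts in a library, 0.0731 to 0.099 CPM (counts scaled to library size), which covers counting error only. CPM of markers and lists were computed from the counts.

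All 8 genes were named in every comparison. Of each list, up to 3 called genes with the largest absolute change were named, and for each of the 8 genes the 2 others with the highest Pearson's r. Some genes that this rule names are not reported here. The genes and lists were chosen with earlier results of these data known. Of 22 machinery genes 21 were found by symbol. Alternatives were RLE scaling, no scaling factors, no filter on low counts, DESeq2 1.42.0, a replicate block, fits of only the compared groups, each library left out in turn, and ratios of mean TPM against TMM-scaled CPM. List counts under alternatives were added after the data were seen. Promoter windows came from RefSeq (GRCm38.p6), matched by symbol for 8 of 8 genes.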

Additional observations from a re-analysis of the deposited data

Results flagged for a closer look

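Responses that differed between cell types by the test of the difference itself (edgeR quasi-likelihood, 27 libraries) were looked at again. For saringosterol, Srebf1 responded more in microglia than in hepatocytes by 0.91 ± 0.12 on the log2 scale (SE; adjusted p = 2.8e-05) and more in BMDM than in hepatocytes by 1.09 ± 0.12 (adjusted p = 6.7e-07). In both macrophage-like cell types all 3 treated libraries stood above all vehicle libraries in TPM, while in hepatocytes the groups overlapped.

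For GW, Insig1 responded more in microglia than in BMDM by 0.91 ± 0.16 (edgeR adjusted p = 5.1e-04) and more in microglia than in hepatocytes by 1.39 ± 0.16 (adjusted p = 1.9e-06). The first of these SE lies under the SE of 0.18 for Insig1 with GW in the fit of BMDM alone, so its p may be too low. Srebf1 responded more to GW in microglia than in hepatocytes by 0.67 ± 0.11 (adjusted p = 1.7e-04) and more in BMDM than in hepatocytes by 0.85 ± 0.11 (adjusted p = 1.5e-05). Srebf2 responded more to GW in microglia than in hepatocytes by 0.59 ± 0.13 (adjusted p = 0.0025). The Mylip response to GW was higher in microglia than in BMDM by 0.28 ± 0.08 (adjusted p = 0.024), a call lost without any 1 of 4 libraries. Rnf145 went the other way, with a difference of -0.36 ± 0.10 for microglia against BMDM (adjusted p = 0.012) and of -0.32 ± 0.10 for microglia against hepatocytes (adjusted p = 0.041), the latter lost without any 1 of 9 libraries. Medium and cell type cannot be told apart in the comparisons with hepatocytes.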

How the results depend on the processing

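Of 63 called changes of the 8 genes, 0 reversed and 753 of 790 alternative values kept their call; 7 changes lost it in at least 1 alternative, as given with each result. Against vehicle, the only reversals were of uncalled changes of Scap, Mbtps1 and Insig2 near 0. Uncalled differences in the other comparisons were not followed, apart from Rnf145 with saringosterol against GW in microglia. Scap with GW in microglia was 0.0041 (RLE scaling), 0.0042 (DESeq2), 0.0047 (only the compared groups) and -0.0408 to 0.0399 with 1 library left out. Scap with GW in BMDM was 0.0041, 0.0042 and 0.0093 in the same order, 0.008 without a filter and -0.0924 to 0.0804 with 1 library left out, and in hepatocytes -0.1157 to 0.0141. Mbtps1 with saringosterol in microglia was 0.0014 without scaling factors, 0.002 without a filter and -0.0323 to 0.0148 with 1 library left out. Mbtps1 with GW was -0.0185 without scaling factors in microglia and -0.0178 to 0.0502 with 1 library left out in hepatocytes. Insig2, with 1 library left out, was -0.0128 to 0.1718 with GW and -0.1349 to 0.0707 with saringosterol in microglia, and -0.028 to 0.0366 with saringosterol in hepatocytes.

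The count of members called moved as follows. With saringosterol in hepatocytes it was 5 under the replicate block and 3 to 5 with 1 library left out. In vehicle microglia against BMDM it was 3 with RLE scaling or DESeq2 and 3 to 4 with 1 library left out. For responses against hepatocytes it was 2 for saringosterol in microglia without a filter, 2 for saringosterol in BMDM with DESeq2 (1 to 2 with 1 library left out), and 2 for GW in BMDM without a filter, with DESeq2 or under the replicate block (1 to 2 with 1 library left out). The added members under the block with saringosterol in hepatocytes were Srebf1 and Scap (adjusted p = 0.035 and 0.016), which were also called without the second vehicle hepatocyte library (0.047 and 0.0021). The numbers do not pair the libraries in that comparison (same-numbered r from -0.02 to 0.02). The block changed no other call of the 8 genes against vehicle in hepatocytes.

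Counts over all genes moved more. With saringosterol in hepatocytes 307 genes were called, against 782 under the replicate block, 563 with DESeq2, 491 without a filter and 86 to 803 with 1 library left out (without vehicle replicate 3 and 2). With GW in hepatocytes the block gave 286 in place of 178, and for saringosterol against GW 544 in place of 316. With GW in BMDM 1606 were called, 2520 with only the compared groups. DESeq2 called 1075, 555, 2948 and 1518 genes where edgeR called 382, 224, 1918 and 899, for the saringosterol response in microglia against BMDM, microglia against hepatocytes and BMDM against hepatocytes, and the GW response in BMDM against hepatocytes; without a filter the first was 700. Without scaling factors the higher and lower calls were 1597 and 3248 in place of 2158 and 2448 with GW in microglia, 717 and 971 in place of 872 and 734 with GW in BMDM, and 174 and 106 in place of 143 and 164 with saringosterol in hepatocytes. With 1 library left out the counts ranged from 846 to 1754 (saringosterol in BMDM, lowest without vehicle replicate 2; 1643 in all), 896 to 1696 (GW in BMDM, lowest without GW replicate 3), 887 to 1475 (saringosterol against GW in BMDM, lowest without GW replicate 3; 1438 in all), 188 to 294 (the same in hepatocytes, lowest without GW replicate 3) and, for the saringosterol responses, 161 to 681 (microglia against BMDM, without microglia saringosterol replicate 3 and BMDM saringosterol replicate 1), 131 to 269 (microglia against hepatocytes, lowest without microglia vehicle replicate 2) and 1220 to 2381 (BMDM against hepatocytes, lowest without BMDM vehicle replicate 1). The cause was not tested. Depth limits Mylip in hepatocytes, with 2 to 13 counts per library.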
